A study of Homo sapiens with 10 samples.

Results

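The 9 genes described here encode inflammatory chemokines and interleukins, namely *CXCL1*, *CXCL2*, *CXCL3*, *CXCL5*, *CXCL8*, *CCL2*, *CCL20*, *IL6* and *IL11*. They were picked by gene symbol from the 27945 symbols of an RNA-Seq table, and a symbol with several RefSeq transcripts was represented by the one of highest mean FPKM. Of the 9 genes, 7 reached the filter for testing (at least 1 cpm in at least 2 libraries) and belong to the 13333 tested genes, while *CXCL5* and *CCL20* did not reach it.

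The libraries came from EA.hy926, an established line made by fusing human umbilical vein endothelial cells with the lung carcinoma line A549. Genomic regions of *VEGFA-LNC* or *VEGFC-LNC*, a pair of long noncoding RNAs (lncRNAs) transcribed near the genes of the vascular growth factors VEGFA and VEGFC, were deleted with CRISPR/Cas9. Each deletion was represented by 3 clonal lines and 2 control libraries, which makes 10 libraries of total, rRNA-depleted RNA. Controls had received the gRNAs but no Cas9 and were taken through clonal selection as well, no stimulus such as a cytokine was named for any group, and neither lncRNA was itself analysed here. Each clone is a line grown from 1 cell, and nothing in the labels tells whether the 2 controls of a set are separate lines, so that their spread may be technical.

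Chemokines are small secreted proteins that draw leukocytes along a gradient through receptors on the leukocyte surface. CXCL1, CXCL2, CXCL3, CXCL5 and CXCL8 bind CXCR2 and attract mainly neutrophils, CCL2 attracts monocytes through CCR2, and CCL20 attracts cells that carry CCR6. IL6 and IL11 are cytokines that bind their own receptor subunits and share the signal transducer gp130, encoded by *IL6ST*. In endothelial cells these genes are known as targets of NF-kB and AP-1, transcription factors that respond to tumour necrosis factor, interleukin 1 and bacterial products.

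The 5 CXCL genes lie close together on chromosome 4, over a span of 358775 bases on the hg19 build, from the start of *CXCL8* (chr4:74606223-74609433, + strand) to the end of *CXCL2* (chr4:74962754-74964997, − strand). *CXCL1* lies at chr4:74735109-74737019 (+ strand), *CXCL5* at chr4:74861359-74864446 (− strand) and *CXCL3* at chr4:74902312-74904490 (− strand). The others are on separate chromosomes, *CCL2* at chr17:32582296-32584220 (+ strand), *CCL20* at chr2:228678558-228682280 (+ strand), *IL6* at chr7:22766761-22771621 (+ strand) and *IL11* at chr19:55875750-55881831 (− strand).

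The promoters are shown as a description of the members, and their part in the differences given below was not tested. RefSeq promoters (assembly GRCh38.p14, a newer build than that of the expression table) were at hand for 8 of the 9 genes, *CCL2* being the one left out. Printed here, on the strand of the gene, are the 150 bases before the start of *CXCL1* (chr4:73869243-73869392), *CXCL2* (chr4:74099196-74099345), *CXCL3* (chr4:74038690-74038839), *CXCL8* (chr4:73740419-73740568), *IL6* (chr7:22727050-22727199) and *IL11* (chr19:55370464-55370613). Capitals mark the letters that match the NF-kB consensus (10 letters, searched on both strands), the shorter GGNATTTCC or the AP-1 motif TGACTCA, whose other strand reads TGAGTCA.
CXCL1: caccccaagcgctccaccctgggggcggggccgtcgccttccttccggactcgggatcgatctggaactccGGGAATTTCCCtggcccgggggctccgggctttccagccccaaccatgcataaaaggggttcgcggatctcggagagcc
CXCL2: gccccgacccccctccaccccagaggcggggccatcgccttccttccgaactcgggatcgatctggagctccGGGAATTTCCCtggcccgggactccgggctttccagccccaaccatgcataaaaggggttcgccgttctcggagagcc
CXCL3: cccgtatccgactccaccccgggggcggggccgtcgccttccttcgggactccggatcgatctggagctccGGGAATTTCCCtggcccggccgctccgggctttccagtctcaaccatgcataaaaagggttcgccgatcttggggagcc
CXCL8: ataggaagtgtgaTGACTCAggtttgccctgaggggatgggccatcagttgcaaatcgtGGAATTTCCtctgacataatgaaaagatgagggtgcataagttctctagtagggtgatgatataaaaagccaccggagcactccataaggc
IL6: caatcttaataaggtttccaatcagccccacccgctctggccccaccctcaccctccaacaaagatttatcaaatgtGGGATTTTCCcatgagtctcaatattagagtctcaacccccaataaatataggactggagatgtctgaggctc
IL11: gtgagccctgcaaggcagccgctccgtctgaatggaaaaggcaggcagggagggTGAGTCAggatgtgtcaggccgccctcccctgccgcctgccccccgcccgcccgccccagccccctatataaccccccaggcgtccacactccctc

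The NF-kB consensus was present within these 150 bases in 6 of the 8 members, which are *CXCL1*, *CXCL2*, *CXCL3*, *CXCL5*, *CCL20* and *IL6*, and in 3.15% of 35116 RefSeq promoters. GGNATTTCC, which overlaps the consensus, was present in 5 of the 8 members, namely all 5 CXCL genes, and in 0.797% of the promoters. TGACTCA was present in *CXCL8* and *IL11*, 2 of the 8 members, and in 2.89% of the promoters. In *CXCL1* and *CXCL3* the consensus began 79 bases before the start. Over the 150 bases *CXCL1* and *CXCL3* were 86.0% identical, and *CXCL1* and *CXCL2* 67.1% identical with a shift of 1 base. The motifs were chosen with the sequences in view, and a match is a description of letters.

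Expression is given as FPKM, the reads of a transcript scaled to its length and to the size of the library, as deposited by the authors. The libraries held between 6744008 and 24197622 reads. Fold changes (FCs) were fitted with limma on log2(FPKM + 0.1), which understates the change of low genes, and a gene was called when its false-discovery rate (FDR) was under 0.05 and its FC at least 1.5 in either direction. The median SD of a tested gene was 0.065 (log2) between the *VEGFA-LNC* controls and 0.064 between the *VEGFC-LNC* controls, against 0.29 and 0.25 between the clones of each deletion. VEGFA-LNC deletion replicate 1 stood apart from the other clones of its group, with a chi-square of the reads per degree of freedom of 97 and 147 against them and 27.4 between the remaining clones. VEGFC-LNC deletion replicate 1 also differed most within its group, at 59.1 and 34.5, with 19.7 between the remaining clones. The endothelial markers *CDH5* and *ENG* were at 56.6 FPKM or more in every library, the endothelial *CLDN5* was at 0 and *KDR* reached 1.39 FPKM at most, and the epithelial keratins *KRT7*, *KRT8* and *KRT18* were at 95.2 FPKM or more. Of the other epithelial markers listed, *EPCAM* reached 0.505 FPKM at most, *KRT19* 0.354 FPKM and *CDH1* 0.048 FPKM. The leukocyte marker *PTPRC* reached 0.123 FPKM at most and *CD3E* 0.118 FPKM. In bulk RNA, fewer cells of a type and less RNA per cell cannot be told apart.

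*CXCL8*, the prototype neutrophil chemokine, had 33.0 and 33.1 FPKM in the *VEGFA-LNC* controls and 3.56, 8.17 and 38.2 FPKM in the *VEGFA-LNC* deletion clones 1 to 3. It had 0.93 and 1.22 FPKM in the *VEGFC-LNC* controls and 5.44, 5.09 and 3.06 FPKM in the *VEGFC-LNC* deletion clones. The control sets lay far apart, the *VEGFA-LNC* clones spread from below to above their controls, and the *VEGFC-LNC* clones all lay above theirs.

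*CCL2*, the monocyte chemoattractant, was the most abundant member per length. Its values were 174 and 182 FPKM in the *VEGFA-LNC* controls and 23.2, 176 and 109 FPKM in the *VEGFA-LNC* deletion clones. In the *VEGFC-LNC* set they were 53.8 and 55.9 FPKM in the controls and 116, 136 and 283 FPKM in the clones. Clone 1 of the *VEGFA-LNC* deletion was the lowest of the 10 libraries, and the *VEGFC-LNC* clones again lay above both of their controls.

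*CXCL2* had 3.84 and 4.07 FPKM in the *VEGFA-LNC* controls, 1.52, 3.49 and 6.34 FPKM in their deletion clones, 0.264 and 0.76 FPKM in the *VEGFC-LNC* controls and 0.895, 0.633 and 0.743 FPKM in those clones. *CXCL1* had 3.51 and 2.59 FPKM in the *VEGFA-LNC* controls and 0.347, 2.61 and 13.5 FPKM in the clones, a range of 38.8-fold between clones of the same deletion. In the *VEGFC-LNC* set *CXCL1* was at or below 0.115 FPKM in all 5 libraries, which is 0 to 3 reads each. The *CXCL3* values were 1.5 and 1.08 FPKM in the *VEGFA-LNC* controls, 0.41, 0.709 and 3.56 FPKM in the clones, and between 0.047 and 0.252 FPKM in the *VEGFC-LNC* set. All 3 genes were highest in clone 3 of the *VEGFA-LNC* deletion and lowest in the *VEGFC-LNC* set. Their transcripts resemble each other, and of all stretches of 75 bases, the read length, 25.7% of those of *CXCL1*, 38.8% of *CXCL2* and 17.8% of *CXCL3* lay within 3 mismatches of another member (0.273%, 2.5% and 2.3% with none), so that reads may have been shared among them and their separate values are uncertain. No such stretch was found for *CXCL8* or *CXCL5*.

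*CXCL5* and *CCL20* were close to the limit of detection. *CXCL5* had at most 3 reads in any library, and 0 reads in all 3 *VEGFA-LNC* deletion clones. *CCL20* had 0.621 and 0.744 FPKM in the *VEGFA-LNC* controls, 0.242, 0.456 and 2.42 FPKM in the clones, and 1 read in total over the 5 libraries of the *VEGFC-LNC* set. Like the *CXCL1* to *CXCL3* genes, *CCL20* was lowest in clone 1 and highest in clone 3 of the *VEGFA-LNC* deletion.

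*IL6*, a cytokine of the acute-phase response, had 3.41 and 3.71 FPKM in the *VEGFA-LNC* controls and 1.08, 2.06 and 4.91 FPKM in the clones. It had 0.267 and 0.35 FPKM in the *VEGFC-LNC* controls and 2.83, 0.458 and 1.00 FPKM in those clones. Clone 1 of the *VEGFC-LNC* deletion lay within the range of the *VEGFA-LNC* set, though below both *VEGFA-LNC* controls. The first 479 of the 4861 bases of *IL6* overlap an antisense gene, *LOC541472*, at 0.199 to 0.917 FPKM, and whether the reads of this table were counted by strand is not given in the sources used here.

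*IL11*, a cytokine of the IL6 family, differed from the others in its order. It had 2.52 and 2.62 FPKM in the *VEGFA-LNC* controls and 1.16, 0.137 and 0.631 FPKM in the clones, so that clone 1 was the highest and clone 2 the lowest. In the *VEGFC-LNC* set it had 0.355 and 0.227 FPKM in the controls and 0.151, 0.16 and 0.188 FPKM in the clones. In both sets all clones lay below both controls, as did 23.7% of the tested genes for the *VEGFA-LNC* set and 30.6% for the *VEGFC-LNC* set.

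**Figure D1:**
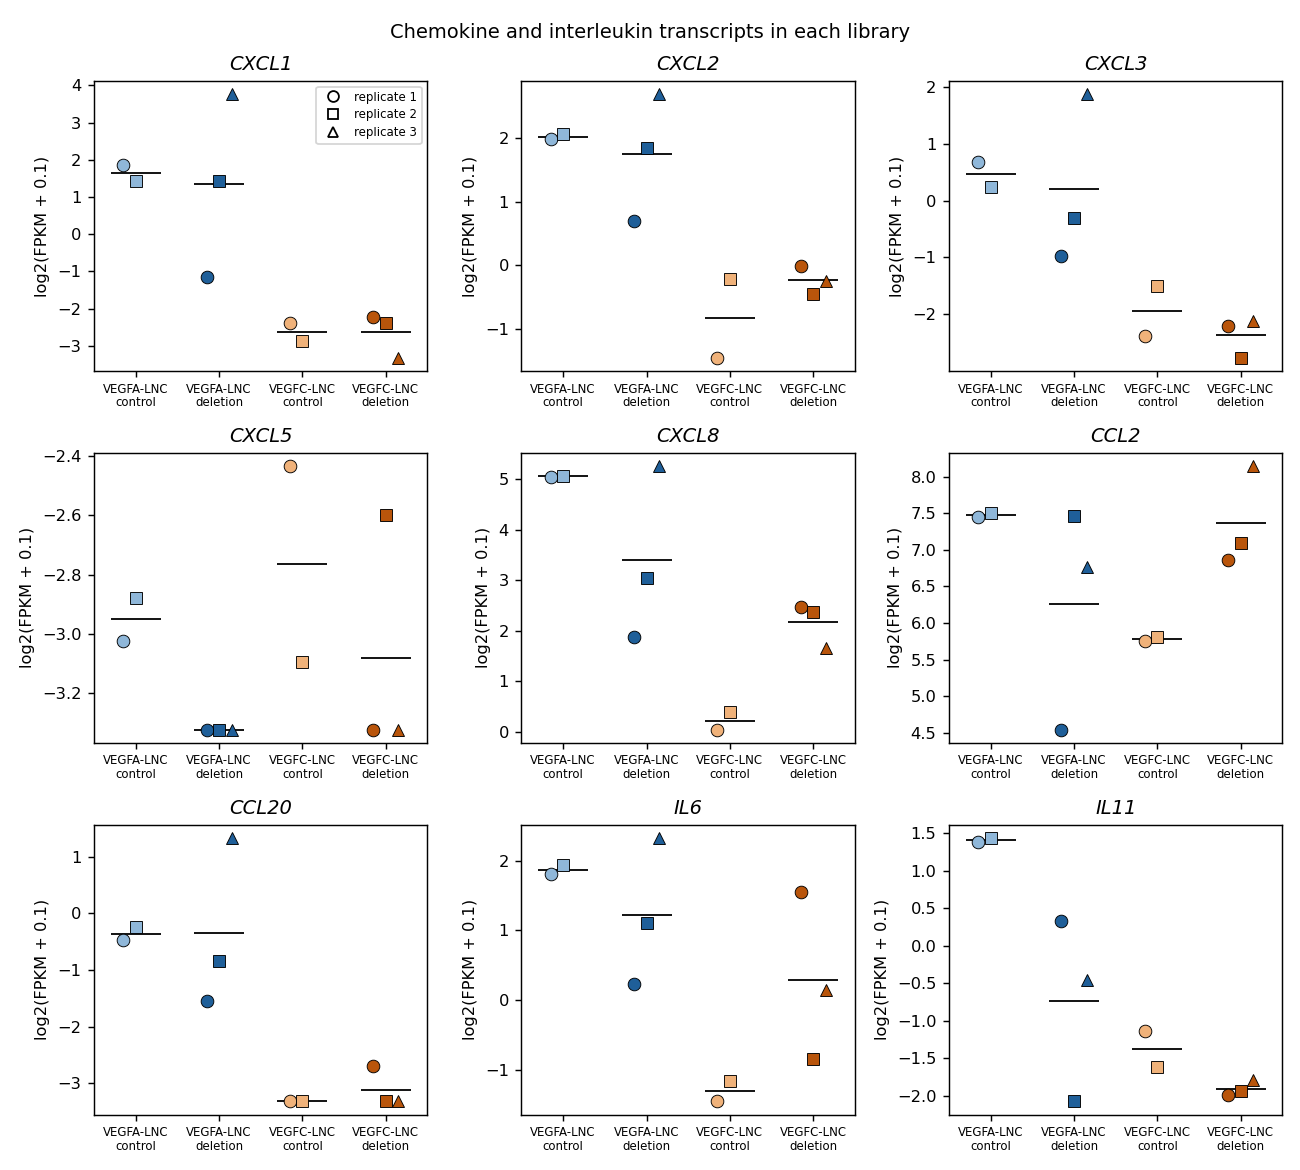
Expression of the 9 members in each of the 10 libraries as log2(FPKM + 0.1), by group. Points are libraries, with the shape giving the replicate number, and lines are group means of the plotted values (2 controls or 3 clones a group, and each panel has its own axis). For all members but *CXCL5*, both *VEGFC-LNC* controls lie below both *VEGFA-LNC* controls, and the *VEGFA-LNC* deletion clones spread widely.

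Deletion of *VEGFA-LNC* was first set against its own controls, to ask whether the members changed with the deletion. None of the 7 tested members was called by limma, where 2.75% of all tested genes were called. An unadjusted p under 0.05 was found for 1 of the 7, *IL11*, and for 2642 of the 13333 tested genes. All 7 fitted changes were negative, with a median of −0.64 (log2) against −0.06 over all tested genes. *IL11* had the largest one (log2 FC −2.15, SE 0.58, FDR 0.0875), followed by *CXCL8* (−1.66, SE 0.78, FDR 0.284) and *CCL2* (−1.22, SE 0.73, FDR 0.402). For *CXCL1*, *CXCL2* and *CXCL3* the log2 FCs lay between −0.29 and −0.26, and the 95% interval for *CXCL1* reached from −2.85 to 2.26. *IL11* was the only tested member in which no clone overlapped the controls, and 23.7% of the tested genes lay below their controls in this way.

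The clones of the *VEGFA-LNC* deletion differed in level over most of the list. Clone 1 was the lowest of the 3 clones in 6 of the 7 tested members and lay below both controls in 7 of 7, clone 2 lay below both controls in 5 of 7, and clone 3 was the highest clone in 5 of 7 and above both controls in 5 of 7. The result of the comparison therefore depended on single clones. Without clone 1 the log2 FCs of *CXCL1*, *CXCL2* and *CXCL3* changed sign to 0.96, 0.25 and 0.32, and *IL11* was called (log2 FC −2.68, FDR 0.0113). Without clone 3 *CXCL8* was called (−2.59, FDR 0.0411), and *IL11* was not called.

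Deletion of *VEGFC-LNC* was set against its own controls in the same way. Again none of the 7 members was called by limma, with 0.473% of all tested genes called. An unadjusted p under 0.05 was found for 1 of the 7, *CXCL8*, and for 2508 of the 13333 tested genes. *CXCL8*, *CCL2* and *IL6* lay above both controls in 3 of 3 clones, with log2 FCs of 1.95 (SE 0.78, FDR 0.242), 1.59 (SE 0.73, FDR 0.284) and 1.58 (SE 0.71, FDR 0.274), and 17.2% of all tested genes lay above both controls in this way. Their 95% intervals reached from 0.17 to 3.73 for *CXCL8*, from −0.08 to 3.25 for *CCL2* and from −0.04 to 3.21 for *IL6*. For *IL6* the order rested on few reads, 3 and 10 in the *VEGFC-LNC* controls and 75, 10 and 8 in clones 1 to 3. *CXCL2* had a log2 FC of 0.60, *CXCL3* of −0.42 and *IL11* of −0.54, and the median over the 7 members was 0.60 against −0.09 over all tested genes. *CCL2* was called when clone 1 of the other deletion was left out of the shared estimate of the spread (FDR 0.0317), with the same log2 FC. Of the endothelial markers, *EMCN* fell in the *VEGFC-LNC* clones (log2 FC −5.08, FDR 0.0467). This call was lost with control pairs averaged (FDR 0.876) and with the replicate number as a block (FDR 0.0884). In the *VEGFA-LNC* set *EMCN* was also lower in the clones, at 0.05 to 1.54 FPKM against 4.83 and 5.06 FPKM in the controls. That change was not called (log2 FC −3.64, FDR 0.0609), nor was the difference between the deletions (FDR 0.554). The summed level of the endothelial list was 470 to 483 FPKM in the *VEGFC-LNC* controls and 477 to 981 FPKM in their clones. The part of these markers in the values of the members was not tested.

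The control sets were then compared with each other, since both had received gRNAs only. *CXCL8*, *IL6*, *CXCL2* and *IL11* were lower in the *VEGFC-LNC* controls than in the *VEGFA-LNC* controls, and 4 of the 7 tested members were thus called, where 12.7% of all tested genes were called and 9.76% were called as lower. *CXCL8* was lower by 28.5-fold (log2 FC −4.83, SE 0.86, FDR 0.0125). *IL6* was lower by 8.99-fold (−3.17, SE 0.78, FDR 0.0337), *CXCL2* by 7.25-fold (−2.86, SE 0.60, FDR 0.0202) and *IL11* by 6.92-fold (−2.79, SE 0.64, FDR 0.0260). The members that were not called had log2 FCs of −4.27 for *CXCL1* (FDR 0.0533), −2.40 for *CXCL3* (FDR 0.0782) and −1.70 for *CCL2* (FDR 0.188). In all 7 members both *VEGFC-LNC* controls lay below both *VEGFA-LNC* controls, an order found for 49.2% of the tested genes. *CXCL1*, *CXCL3* and *IL11* reached 1 cpm in 4, 3 and 4 libraries, all of the *VEGFA-LNC* set. They were thus tested only because they were high in that set. Their order, the call of *IL11* and their part in the count and the median were therefore partly fixed by the filter. The median over the members was −2.86 against −0.11 over all tested genes.

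For *CXCL1*, the *VEGFA-LNC* controls had 139 reads and the *VEGFC-LNC* controls 2 reads, a ratio of 58.6 per library size (exact 95% interval 15.9 to 489, counting error only). *CCL20* had 23 reads in the *VEGFA-LNC* controls and 0 in the *VEGFC-LNC* controls, which makes it at least 6.46-fold lower there, at a floor of 3 reads over the group.

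The 4 calls between the control sets depended on how the controls were counted. With each pair of controls averaged into 1 library, 0 of the 7 members and 0 of all tested genes were called by limma, while 4 of the 7 members and 1224 of all tested genes had an unadjusted p under 0.05, and the FDRs of the 4 genes lay between 0.471 and 0.523 with unchanged log2 FCs. None of the members was called either when VEGFA-LNC control replicate 1, VEGFA-LNC control replicate 2, VEGFC-LNC control replicate 1 or VEGFC-LNC control replicate 2 was left out, with log2 FCs for *CXCL8* from −5.01 to −4.66 and 5 or 6 of the 7 members at an unadjusted p under 0.05. All 7 were called without clone 1 of the *VEGFA-LNC* deletion, and 6 of 7 without its clone 3. Leukocyte markers moved along, and their part in the result was not tested. Of the 8 on the list, 4 were tested and *ITGAM* and *CD68* were called as lower, with a summed level of 50.03 to 54.9 FPKM in the *VEGFA-LNC* controls and of 26.3 to 26.5 FPKM in the *VEGFC-LNC* controls, most of it from *CD68*, while *PTPRC* and *CD3E* were at 0 in the *VEGFC-LNC* controls. Of the endothelial markers 9 were tested, and 0 were called and 0 had an unadjusted p under 0.05 between the control sets by limma. Over all 13333 tested genes, 4171 had such a p.

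**Figure D2:**
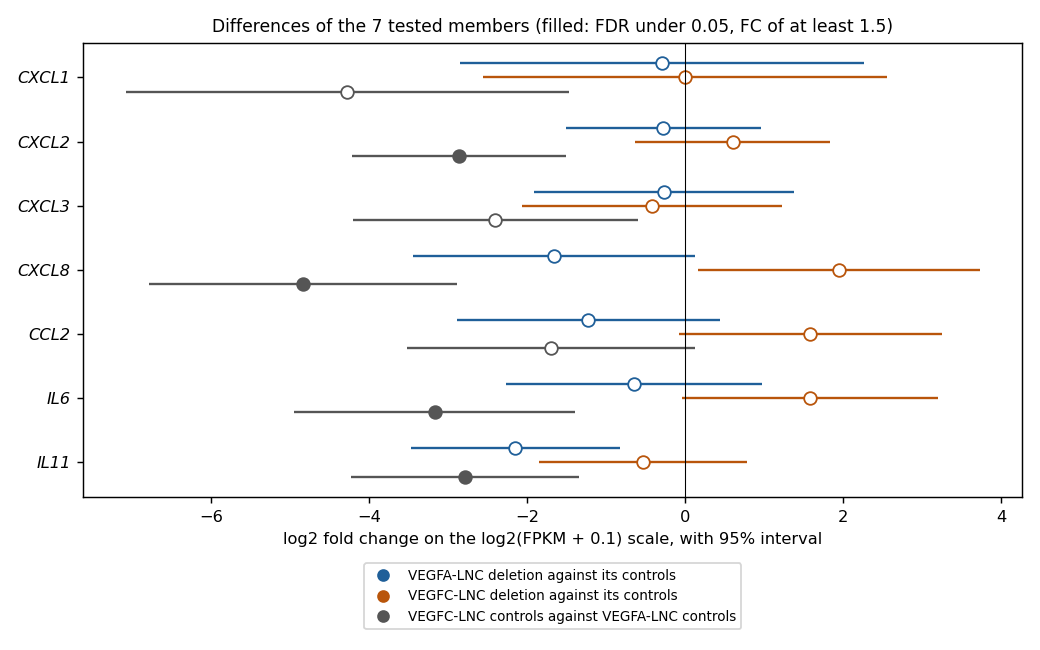
Fitted log2 FCs of the 7 tested members with their 95% intervals, for each deletion against its own controls and for the *VEGFC-LNC* controls against the *VEGFA-LNC* controls. Filled points mark an FDR under 0.05 with an FC of at least 1.5, which hold for *CXCL8*, *IL6*, *CXCL2* and *IL11* between the control sets, while all points of the deletions are open.

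The comparisons share libraries, as the *VEGFA-LNC* controls enter both the first and the third and the *VEGFC-LNC* controls both the second and the third. How far the effects of the deletions differed was therefore tested as a contrast of its own. None of the 7 members was called for it by limma, with 1.46% of all tested genes called. An unadjusted p under 0.05 was found for 2473 of the 13333 tested genes and for 2 of the 7 members. These were *CXCL8*, for which the effect of *VEGFA-LNC* deletion minus that of *VEGFC-LNC* deletion was −3.61 (log2, SE 1.11, FDR 0.144), and *CCL2*, at −2.81 (SE 1.04, FDR 0.201). For *IL6* the difference was −2.23 (SE 1.01, FDR 0.282). Without clone 3 of the *VEGFA-LNC* deletion the difference for *CXCL8* was called (−4.54, FDR 0.0222).

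The receptors of the members were mostly close to the limit of detection, apart from *IL6ST* and *IL6R*. *CXCR1*, *CCR2*, *CCR6*, *ACKR1*, *ACKR2* and *IL11RA* did not reach the filter, with *ACKR1* at 0 in every library and *IL11RA* between 0.254 and 0.709 FPKM. *CXCR2*, the receptor of the neutrophil chemokines, was highest in clone 3 of the *VEGFA-LNC* deletion at 1.39 FPKM and was called in none of the comparisons. *IL6ST* had 44.3 and 45.7 FPKM in the *VEGFA-LNC* controls and 23.5 to 27.7 FPKM in their deletion clones. It fell by 0.84 on the log2 scale upon *VEGFA-LNC* deletion (SE 0.12, FDR 0.0139), in 3 of 3 clones, and was at 24.1 to 25.0 FPKM in the *VEGFC-LNC* controls and 23.5 to 26.9 FPKM in those clones. The *VEGFA-LNC* controls were thus the high group, and *IL6ST* was lower in the *VEGFC-LNC* controls than in these (log2 FC −0.87, FDR 0.00707). *IL6R*, the subunit that binds IL6, had 1.60 and 1.70 FPKM in the *VEGFA-LNC* controls and 3.75 and 3.77 FPKM in the *VEGFC-LNC* controls (log2 FC 1.14, FDR 0.0450), the opposite order to *IL6* itself. With control pairs averaged, none of these calls of *IL6ST* and *IL6R* was kept, with FDRs from 0.471 to 0.562.

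**Figure D3:**
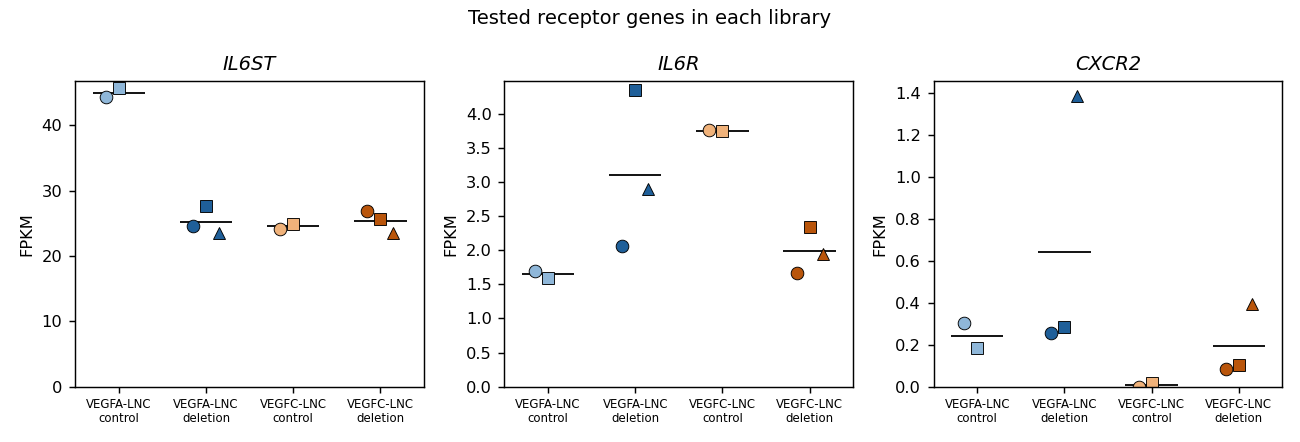
FPKM of the 3 tested receptor genes in each library on linear axes from 0, with points for libraries (circle, square and triangle for replicates 1 to 3) and lines for group means. *IL6ST* is highest in both *VEGFA-LNC* controls (44.3 and 45.7 FPKM), and *IL6R* is higher in both *VEGFC-LNC* controls (3.75 and 3.77 FPKM) than in the *VEGFA-LNC* controls.

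The NF-kB pathway, which the members are known to follow, was examined by 3 lists. Of 12 tested inhibitors and feedback genes, 6 were called as lower in the *VEGFC-LNC* controls than in the *VEGFA-LNC* controls and 0 as higher. By sign alone, 10 were lower and 2 higher. Of all tested genes 9.76% were called as lower. The median log2 FC of the list was −1.16 against −0.11 over all tested genes. *BIRC3*, an inhibitor of apoptosis induced by NF-kB, had 9.89 and 9.93 FPKM in the *VEGFA-LNC* controls and 0.21 and 0.29 FPKM in the *VEGFC-LNC* controls (log2 FC −4.85, FDR 0.00668). *TNFAIP3*, whose product A20 restrains NF-kB, had 12.8 FPKM in each of the former and 0.795 and 0.855 FPKM in the latter (−3.80, FDR 0.00503). *NFKBIE*, an inhibitor of NF-kB, was also lower (log2 FC −2.26, FDR 0.00670), and *BIRC2*, a ubiquitin ligase of the pathway, differed with a log2 FC of −1.48 (FDR 0.00214).

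Of 21 tested NF-kB subunits and upstream kinases and receptors, 4 were called as lower and 0 as higher in that comparison. By sign alone, 18 were lower and 3 higher. Of all tested genes 9.76% were called as lower. The median log2 FC of this list was −0.24 against −0.11 over all tested genes. The 4 called genes were *RELB* (−3.11, FDR 0.0151) and *NFKB2* (−2.03, FDR 0.0252), subunits of the noncanonical branch, *MAP3K14*, the kinase of that branch (−1.44, FDR 0.00913), and *RELA*, a subunit of the canonical branch (−0.80, FDR 0.0459). Of 10 other tested NF-kB targets 9 were lower and 1 higher by sign. Called as lower were 2, *TRAF1* (−4.08, FDR 0.00734) and *BCL2A1* (−3.36, FDR 0.0321), and 0 were called as higher. *TRAF1*, an adaptor of tumour necrosis factor receptors, had 28.1 and 28.5 FPKM in the *VEGFA-LNC* controls, 2.92 to 14.0 FPKM in their deletion clones and 1.55 and 1.62 FPKM in the *VEGFC-LNC* controls.

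Of 11 tested AP-1 and C/EBP factors, which bind the promoters of *CXCL8* and *IL6*, 5 were called as lower and 0 as higher in the *VEGFC-LNC* controls. By sign alone, 9 were lower and 2 higher. *ATF3*, a stress-induced factor, had 85.1 and 87.5 FPKM in the *VEGFA-LNC* controls and 4.36 and 4.51 FPKM in the *VEGFC-LNC* controls (log2 FC −4.25, FDR 0.00137), followed by *CEBPB* (−2.28, FDR 0.00972), *FOS* (−1.77, FDR 0.0146) and *FOSL2* (−0.68, FDR 0.0362). Of 15 other tested cytokines, 12 were lower and 3 higher by sign. Called as lower were 3, *LIF* (−2.97, FDR 0.0286), *IL1A* (−2.48, FDR 0.00909) and *IL15* (−1.34, FDR 0.0446), and 1 was called as higher, *IL33* (1.03, FDR 0.0373). Of 3 other tested chemokines 2 were lower and 1 higher by sign, and 1 was called as lower, *CCL26* (−4.32, FDR 0.0208). For comparison, 9.76% of all tested genes were called as lower and 12.7% in either direction, and the lists of gp130 and mRNA decay genes were near the first of these shares for genes called as lower. Among 9 genes of gp130 signalling 7 were lower and 2 higher by sign, and 1 was called as lower, the feedback inhibitor *SOCS3* (−1.70, FDR 0.00541). Of 11 genes of cytokine mRNA decay and stability 4 were lower and 7 higher by sign. Called as lower was 1, *ARID5A*, known to stabilize *IL6* mRNA (−2.45, FDR 0.0121), and 1 was called as higher, *HNRNPD* (0.91, FDR 0.0418), an mRNA-binding decay factor. With control pairs averaged, none of the named genes of these lists was called, and the FDRs of the 30 named genes that had been called between the control sets, members and markers included, lay between 0.273 and 0.566. With the replicate number as a block, *IL15* (FDR 0.0640) and *BCL2A1* (FDR 0.0520) were no longer called between the control sets.

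**Figure D4:**
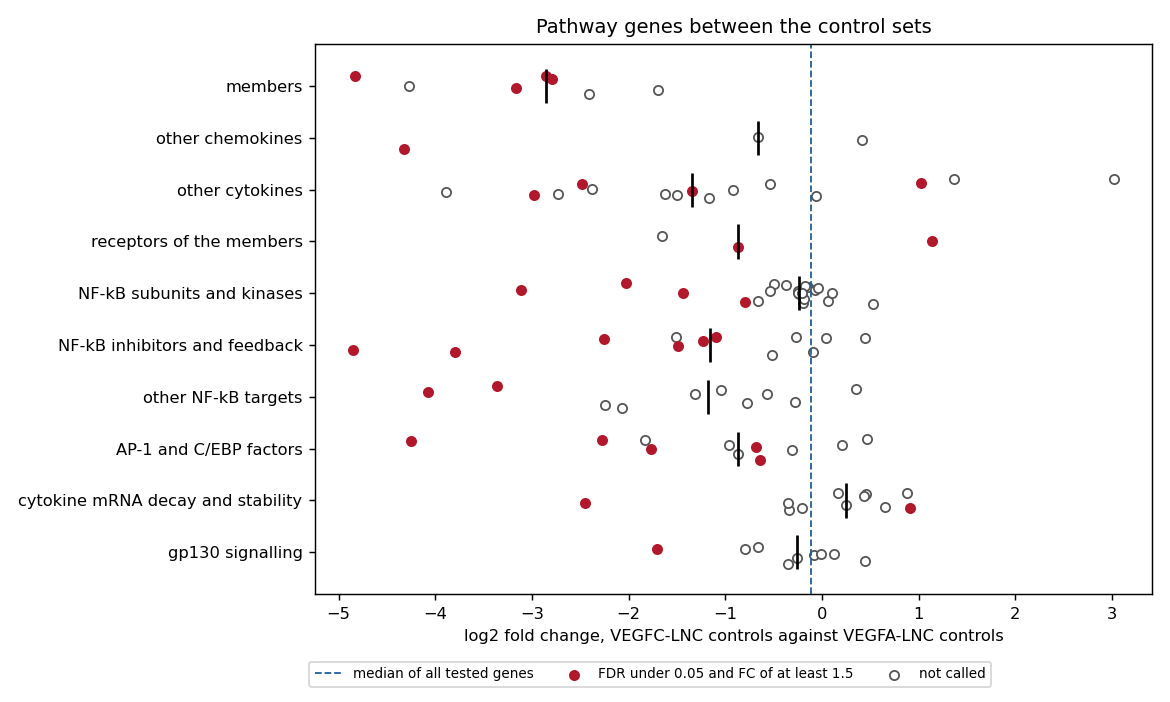
Log2 FC of the *VEGFC-LNC* controls against the *VEGFA-LNC* controls for each tested gene of 10 lists, 1 row a list. Filled points are called genes, the short vertical line is the median of the list and the dashed line the median of all tested genes (−0.11). The called genes of the NF-kB and AP-1 lists all lie to the left, as do those of the members, while the medians of the decay and gp130 lists lie at 0.25 and −0.26.

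Of the 95 tested genes of the 9 pathway lists, 27 were called between the control sets, where 12.7% of all tested genes were called, and 8 upon *VEGFA-LNC* deletion, where 2.75% of all were. *ATF3* fell to 10.2 to 21.0 FPKM in the clones (log2 FC −2.49, FDR 0.00794), *FOS* (−1.66, FDR 0.0281), *MAP3K14* (−1.24, FDR 0.0245) and *BIRC2* (−0.96, FDR 0.0112) also fell, and *CEBPD*, a C/EBP factor, rose (1.82, FDR 0.0490). Of the other cytokines *IL36A* fell (−3.51, FDR 0.0460) and *IL33* rose (1.44, FDR 0.0228). *BIRC3* and *TNFAIP3* had log2 FCs of −2.20 (FDR 0.105) and −1.76 (FDR 0.0729) and were not called without a block. Upon *VEGFC-LNC* deletion 0 of the 95 genes were called by limma, where 0.473% of all tested genes were called. An unadjusted p under 0.05 was found for 10 of the 95 and for 2508 of the 13333 tested genes. With the replicate number as a block, the calls of *MAP3K14* (FDR 0.0604), *CEBPD* (FDR 0.104), *IL36A* (FDR 0.0810) and *IL33* (FDR 0.0580) upon *VEGFA-LNC* deletion were lost and *TNFAIP3* was called (log2 FC −2.07, FDR 0.0325). With control pairs averaged the calls of the *VEGFA-LNC* deletion were lost, at FDRs from 0.353 to 0.663.

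Within 1 Mb of the CXCL cluster on chromosome 4, 19 other genes were listed and 4 were tested. By limma 0 of the 4 were called in any of the comparisons, with a median log2 FC of 0.10 between the control sets. There, 1 of the 4 had an unadjusted p under 0.05, as did 4171 of the 13333 tested genes.

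The order of the 10 libraries was summarized as the mean of the z-scores of the 7 tested members, computed on log2(FPKM + 0.1). This profile was highest in clone 3 of the *VEGFA-LNC* deletion (1.13) and in the *VEGFA-LNC* controls (1.05 and 1.02), intermediate in clone 2 (0.34) and clone 1 (−0.31), and lowest in the *VEGFC-LNC* controls (−1.04 and −0.84), with the *VEGFC-LNC* clones between −0.64 and −0.31. *CXCL8* followed the profile it is part of with r = 0.97 and *CXCL2* with r = 0.96, whereas *IL11* (r = 0.65) and *CCL2* (r = 0.43) followed it less. Outside the members, the tested genes whose values were most alike to the profile over the 10 libraries were *RETSAT* and *MAP3K7CL* (both r = 0.98), *ACBD3* (0.98), *TRPC4AP* (0.97) and *CHMP7* (0.97), given as a description of libraries that share their groups.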

How the data were processed

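The 9 members, the gene lists and the tests were chosen with earlier results of these data known. The authors deposited FPKM values of RefSeq transcripts on hg19 for 10 libraries (3 clones and 2 controls for each deletion), sequenced as single-end reads. Reads were trimmed with Trim Galore (version 0.4.4) and aligned to GRCh37 with STAR (version 2.5.4b) per the paper's methods and the labels. How the table was counted and scaled is not given in the sources used here, and the edgeR test named in the methods was not run, since it needs counts. Multiplying FPKM by length gave whole reads, within 0.15 reads, for 100% of the values tried, at 6744008 to 24197622 reads per library. Reads carry no molecular identifiers. The exact interval of the *CXCL1* read ratio covers counting error only, while the intervals of the fitted log2 FCs come from the limma SE.

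The row with the highest mean per symbol was kept, and 42 rows with no symbol were left out. The 13333 genes with FPKM times kilobases of at least 1 in at least 2 libraries were fitted as log2(FPKM + 0.1) by the lmFit and eBayes (with trend) functions of limma (version 3.58.1; R version 4.3.3), in 4 groups with 6 residual degrees of freedom. FDRs follow Benjamini and Hochberg over all tested genes, and a called gene has FDR under 0.05 and changes at least 1.5-fold. The fit was tested on simulated data in which a gene had the same SD in all groups. Controls spread less than clones in the real data, so that the simulation cannot tell how the fit behaves there. P-values measure the spread between these libraries, which for controls may be technical.

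All 9 members are named, along with receptors, at most 4 called genes per list and comparison, and the 5 genes most alike to the profile. *BIRC3* and *TNFAIP3* upon *VEGFA-LNC* deletion, *LOC541472* and the markers are named beyond this rule, after their values were seen, and 1 marker gene is not reported here. Replicate numbers did not pair clones with controls (correlation of deviations from −0.06 to 0.05). Between the deletion groups same-numbered clones correlated at 0.55, 0.41 and 0.22, and the fit with the number as a block is therefore given beside named genes whose call it changed. Other alternatives were the pseudocount, the filter, median-of-ratios scaling, the longest row per symbol, pooled or averaged controls, separate fits and leaving out each library. Figures and counts were made in Python (version 3.11.15) with pandas (version 2.3.3), numpy (version 2.4.6), scipy (version 1.17.1) and matplotlib (version 3.10.9).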

Additional observations from a re-analysis of the deposited data

Results flagged for a closer look

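No member differed between the deletions by the test of the difference itself, while 3 of the other named genes did. In each case the value is the log2 effect of *VEGFA-LNC* deletion minus that of *VEGFC-LNC* deletion, by limma. The difference was −3.37 for *ATF3* (FDR 0.0122), −1.06 for *BIRC2* (FDR 0.0294) and −0.88 for *IL6ST* (FDR 0.0441). With the replicate number as a block, the calls of *BIRC2* and *IL6ST* were lost (both FDR 0.0624), and with control pairs averaged the calls of *BIRC2*, *IL6ST* and *ATF3* were lost, at FDRs of 0.824, 0.910 and 0.493.

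In 4 further genes all clones of one deletion lay on one side of their controls and all clones of the other deletion on the opposite side, but the tested difference was not called. This order, either way round, was found for 8.32% of the 13333 tested genes. The difference was 1.71 for *IL6R* (FDR 0.0754), whose clones lay above their controls upon *VEGFA-LNC* deletion and below them upon *VEGFC-LNC* deletion. It was −2.01 for *IL1A* (FDR 0.0953), −1.84 for *ARID5A* (FDR 0.139) and −0.46 for *FOSL2* (FDR 0.3005), in each of which the order was the reverse. Groups of 2 and 3 libraries were too small for a test of single outlying libraries.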

How the results depend on the processing

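The 4 members called between the control sets became 0 with control pairs averaged and 7 with separate fits for each comparison, and ranged from 0 to 7 when single libraries were left out. The 0 members called upon *VEGFA-LNC* deletion became 1 (*IL11*, FDR 0.0254) with a pseudocount of 1 and ranged from 0 to 1 without single libraries, as did those upon *VEGFC-LNC* deletion and for the difference of the deletions. With the replicate number as a block, 4 members were called between the control sets and 0 in the other comparisons. With all 4 controls taken as 1 group, which mixes the control sets, several changes turned sign. Upon *VEGFA-LNC* deletion the log2 FCs became 1.84 for *CXCL1*, 1.15 for *CXCL2*, 0.94 for *CXCL3*, 0.76 for *CXCL8*, 0.94 for *IL6*, 0.23 for *BIRC3* and 0.14 for *TNFAIP3*, upon *VEGFC-LNC* deletion −0.82 for *CXCL2*, −0.47 for *CXCL8* and −0.0012 for *IL6*, and for the difference 1.23 for *CXCL8*, 0.94 for *IL6*, 0.42 for *BIRC2* and 0.89 for *ATF3*. *CXCL1* became 0.036 upon *VEGFA-LNC* deletion and 0.0068 upon *VEGFC-LNC* deletion with a pseudocount of 1, and 0.034 upon the latter with median-of-ratios scaling. Without single libraries, the log2 FCs upon *VEGFA-LNC* deletion ranged from −1.50 to 0.96 for *CXCL1*, −0.75 to 0.25 for *CXCL2* and −1.10 to 0.32 for *CXCL3*, and those upon *VEGFC-LNC* deletion from −0.25 to 0.34, −0.016 to 1.22 and −0.86 to 0.015, respectively. Over all tested genes, the calls under the alternatives that kept all libraries ranged from 0 to 654 upon *VEGFA-LNC* deletion (367 as reported and 151 with the block), from 1 to 83 upon *VEGFC-LNC* deletion (63, and 20 with the block), from 0 to 4401 between the control sets (1690, and 1628 with the block) and from 0 to 329 for the difference of the deletions (194, and 86 with the block). Median-of-ratios scaling moved the median of all tested genes between the control sets from −0.11 to −0.004, and the calls from 389 higher and 1301 lower to 587 higher and 906 lower, with all 4 members still called. Of 1177 values of single genes under alternatives, 855 kept their direction and call, 280 lost the call, 18 gained it and 24 changed sign. The causes of these changes were not tested. At 3 reads or fewer per library, differences of *CXCL1*, *CXCL5* and *CCL20* within the *VEGFC-LNC* set were not detectable at this depth.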
